A study of Mus musculus with 45 samples.

Results

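The Spred genes encode membrane-anchored inhibitors of RAS, and CIC occupancy at Spred1, Spred2 and Spred3 was examined here in the mouse cerebellum. CIC peaks were taken as belonging to a Spred gene when a summit lay inside the gene or within 50 kb of either end. This gave 25 of the 7213 deposited peaks, that is 10 called in WT mice, 9 in 154Q mice and 6 in 154Q[V591A;S602D] mice. The rule used the gene names and the summit positions, and no peak height or rank.

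CIC (Capicua) binding was profiled by CUT&RUN, which cuts and recovers the DNA under a protein with an antibody-tethered nuclease. All mice were on a C57BL/6 background, were 10 weeks of age, and gave whole cerebellum. WT mice (n = 4) carried unmodified Atxn1. The 154Q mice (Atxn1 154Q/2Q, n = 4) carried 1 polyglutamine-expanded knock-in allele opposite a normal allele, the genotype that models spinocerebellar ataxia type 1. In the 154Q[V591A;S602D] mice (n = 3, the contact mutant) the expanded allele also carried V591A and S602D, substitutions designed to break the contact between ATXN1 and CIC. The control mice (Engrailed1-Cre;Cicfl/fl, CIC KO, n = 4) lacked Cic in the lineage marked by Engrailed1-Cre, so CIC may remain in other cells of the tissue. The comparison addresses how the expanded allele, with and without its CIC contact, relates to CIC occupancy at these loci.

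The libraries of each genotype were merged by the authors before peaks were called against the merged CIC KO libraries. Each list is therefore a single observation of its genotype, all 3 lists share the same control, and no SD or test over animals could be attached to any difference. The WT list was identified by its own name, since the sample labels attach it to the CIC KO libraries and to no WT library, and every WT value rests on that name. The CIC KO libraries are the background of every value, so they give no Spred peaks of their own to count. Within a list, peaks were ranked by −log10 q, after peaks with over 50% repeat-masked bases had been removed from the WT and contact-mutant lists as the authors had done for 154Q. This left 4432, 1690 and 848 ranked peaks. No Spred peak was removed. The −log10 q of a site grows with sequencing depth, and the depth of the 154Q libraries cannot be recovered from its list, so ranks rather than −log10 q were compared between genotypes. The tissue could not be checked against marker genes, since peak lists hold no expression values.

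SPRED proteins bind neurofibromin, the RAS GTPase-activating protein encoded by Nf1, and bring it to the plasma membrane, where it switches RAS off. Loss of SPRED1 function in people causes Legius syndrome, a RASopathy. CIC is an HMG-box repressor that binds a short octamer and is itself relieved from its targets by RAS-ERK signalling, and genes for negative regulators of that pathway are among its known targets.

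The 4 octamers TGAATGAA, TGAATGGA, TCAATGAA and TCAATGGA were searched on both strands. The windows around the Spred genes held 90 of them in 472 kb, 43 at Spred1, 37 at Spred2 and 10 at Spred3. Of these, 7 lay wholly within 50 bp of a CIC summit, and an eighth, at Spred1 +1306, had its centre 48.5 to 51.5 bp from a summit in all 3 lists. These 8 octamers are shown because they are the ones that lie beside CIC summits. They are written 5′ to 3′ on the strand that reads as the octamer, with the octamer in capitals, and named by the distance in bp of the octamer from the nearest annotated start site of the gene (GRCm38.p6 reference sequence).

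Spred1 -1190, chr2:117120169-117120198, plus strand: taccccgggctTCAATGGAagccgttctcc

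Spred1 +1306, chr2:117122929-117122958, minus strand: tattttttttaTGAATGAAgtgtgctatgc

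Spred1 +1554, chr2:117123178-117123207, minus strand: caggtattttaTGAATGGAggcgatcacgt

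Spred1 +1578, chr2:117123201-117123230, minus strand: gtactgcactgTGAATGGAcagccaggtat

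Spred2 -4360, chr11:19920001-19920030, minus strand: tgcaagtattaTGAATGAAacgccaagccc

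Spred2 +940, chr11:19925368-19925397, minus strand: ccgtgtttttaTGAATGAAaatgtggtatg

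Spred2 +1616, chr11:19926043-19926072, minus strand: aatggcagcacTGAATGAAaggagccgagg

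Spred3 -6, chr7:29168639-29168668, minus strand: cttgatttttgTGAATGAAatgctccttgt

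Of the 8, 5 read TGAATGAA, 2 TGAATGGA and 1 TCAATGGA, and 7 lay on the minus strand of the genome. The 10 bases just 5′ of the octamer held 5 or more T in 4 of the 8 (Spred1 +1306 and +1554, Spred2 +940 and Spred3 -6), with 1 to 8 T over the set. Of the 82 other octamers in the windows, 14 (17.1%) had 5 or more. Spred1 +1306, which had the most T (8), does not lie wholly within 50 bp of a summit, so the 4 of 8 includes an octamer outside that rule. The T-rich feature was noticed after the sequences had been seen and was given no test. The match of these letters does not show that CIC touches them.

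A stretch of 300 bases of the intronic element of Spred1 is given because it holds 3 of the 8 octamers and the highest-ranked Spred summits. The peaks called there in WT and the contact mutant extended beyond it on both sides. It lies in intron 1 at chr2:117122930-117123229 and is written on the plus strand, which is the strand of the gene, so the octamers appear in capitals as their reverse complements.

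Spred1 intron 1 element: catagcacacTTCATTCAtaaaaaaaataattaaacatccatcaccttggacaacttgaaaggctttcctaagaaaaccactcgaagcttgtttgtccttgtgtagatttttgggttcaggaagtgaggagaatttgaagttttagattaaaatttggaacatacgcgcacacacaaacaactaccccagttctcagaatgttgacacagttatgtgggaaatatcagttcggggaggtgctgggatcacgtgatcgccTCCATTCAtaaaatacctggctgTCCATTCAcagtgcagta

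In the first intron of Spred2, 2 octamers lay beside summits, and 101 bases around each are shown on the plus strand, at chr11:19925333-19925433 and chr11:19926008-19926108, because the contact-mutant list had a summit at the first and none at the second.

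Spred2 intron 1, +940: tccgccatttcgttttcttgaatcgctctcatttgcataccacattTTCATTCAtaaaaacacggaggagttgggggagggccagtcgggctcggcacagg

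Spred2 intron 1, +1616: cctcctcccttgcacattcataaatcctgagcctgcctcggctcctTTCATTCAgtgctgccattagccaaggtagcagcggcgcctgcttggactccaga

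Spred3 has a single octamer near a summit, at its start site. The 120 bases upstream of that start (chr7:29168648-29168767, minus strand) are shown because a summit of the 154Q list, and of no other, fell 2 bp from the start.

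Spred3 promoter: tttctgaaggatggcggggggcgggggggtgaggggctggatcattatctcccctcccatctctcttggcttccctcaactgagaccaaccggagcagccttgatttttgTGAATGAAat

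An octamer was found in 3.84% of 32851 RefSeq promoters (250 bases before to 50 after each start), which included the Spred3 promoter and neither the Spred1 nor the Spred2 promoter.

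CIC peaks were found in the windows of all 3 Spred genes in WT and 154Q and of Spred1 and Spred2 in the contact mutant. The WT peaks in the Spred3 window were nearest to the coding starts of Fam98c and Psmd8, not of Spred3. Spred1 had 3, 2 and 3 peaks, Spred2 had 5, 4 and 3, and Spred3 had 2, 3 and 0, in the order WT, 154Q and the contact mutant. A peak in the same window was held by 35.5% of 21938 protein-coding genes in WT, by 18% in 154Q and by 11.2% in the contact mutant, and by 8.26% in all 3 lists. A single peak within 50 kb was therefore common. Having as many peaks as Spred2 was less so, at 1.99% of coding genes in WT, 0.447% in 154Q and 0.547% in the contact mutant. For Spred1 the corresponding shares were 7.32%, 5.16% and 0.547%, and for Spred3 they were 15.5% in WT and 1.69% in 154Q. These shares were not matched for gene length, and the windows of Spred1, Spred2 and Spred3 spanned 161, 200 and 112 kb. In WT and the contact mutant, 2 of the 3 Spred1 peaks came from 1 upstream site. At q below 0.01 each of these counts of 3 was 2.

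**Figure D1:**
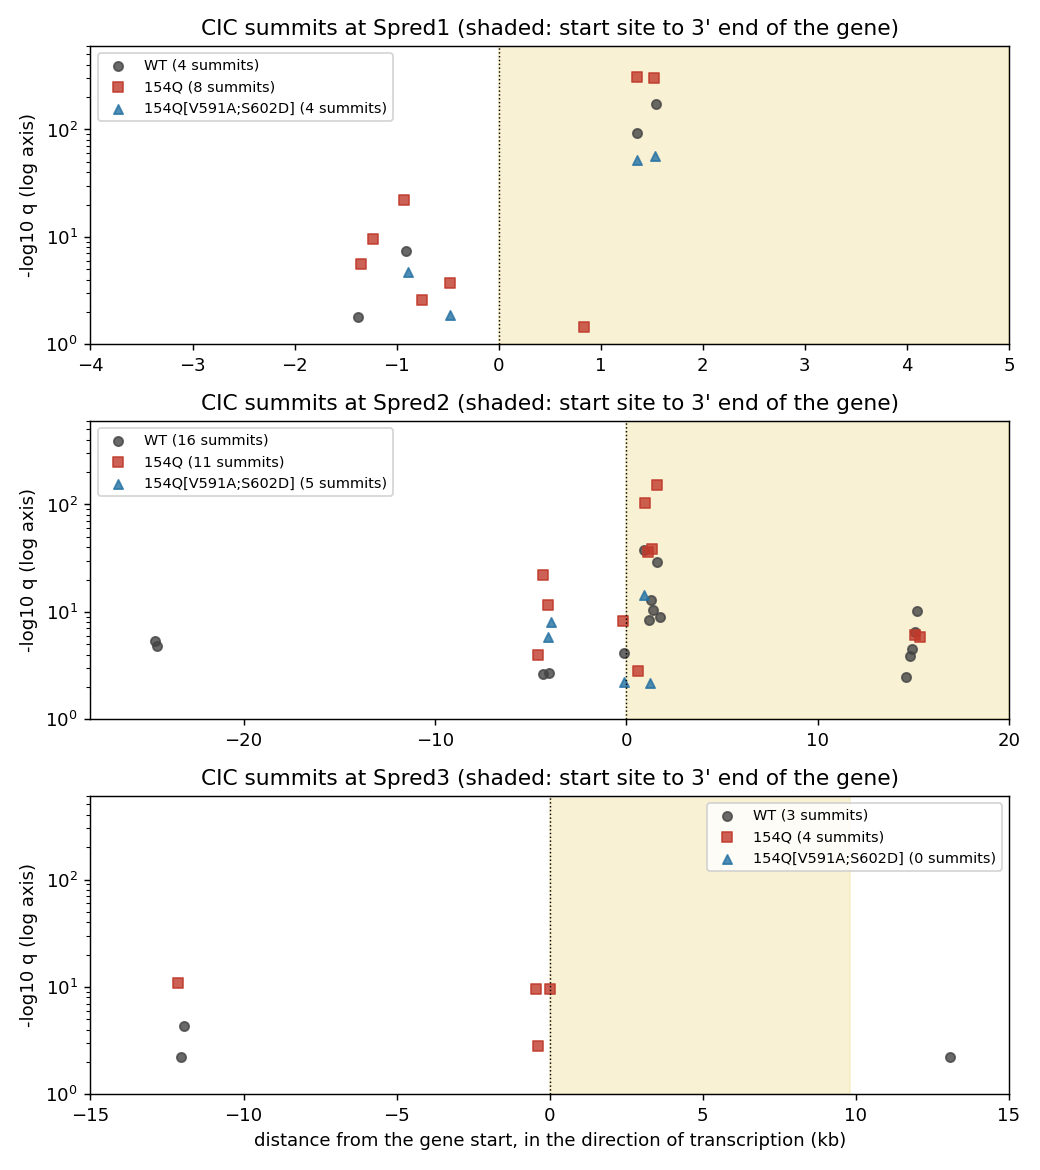
Each point is a CIC summit, placed by its distance in kb from the nearest annotated start of the gene (x axis, positive in the direction of transcription) and by its −log10 q on a log axis, for the 3 lists (the contact mutant is 154Q[V591A;S602D] in the key). Summits with the highest −log10 q lie in the first intron of Spred1 and of Spred2, and the Spred3 panel has no point from the contact-mutant list.

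The 25 peaks fell into 11 sites when peaks that overlapped, or whose summits lay within 100 bp, were joined. Of these sites, 5 were in all 3 lists, 2 in 2 lists and 4 in 1 list. Joined in the same way, the ranked peaks of all lists gave 5268 sites, of which 8.03% were in 3 lists, 15.3% in 2 and 76.7% in 1. The lists share their control and differ in length, and the Spred sites are few, so nothing particular to them is read from this. Both Spred1 sites and 3 of the 5 Spred2 sites were in all 3 lists, and none of the 4 Spred3 sites was. With peaks at q below 0.001 only, 3 of 10 Spred sites were in all 3 lists, beside 7.71% of 3099 sites. Where summits of 2 lists lay within 100 bp of each other, a limit that bounds the distance by construction, their spacing was as follows. The 13 pairs of WT and 154Q summits at the Spred genes, of 23 summits in each list, were 2 to 85 bp apart (median 20 bp), beside a median of 22 bp over all 1121 such pairs. The 7 pairs of WT and contact-mutant summits lay 1 to 56 bp apart (median 14 bp), beside 25 bp over 559 pairs. The 8 pairs of 154Q and contact-mutant summits lay 1 to 82 bp apart (median 27 bp), beside 20 bp over 447 pairs.

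Spred1 (ENSMUSG00000027351, chr2:117121374-117182279, plus strand) had no other coding gene in its window, and the best summits of its peaks lay no more than 1539 bp from a Spred1 start. Its intron 1 element was the highest-ranked Spred site in every list. The peak spanned chr2:117122715-117123465 in WT and chr2:117122830-117123388 in the contact mutant. In WT it was number 8 of 4432 (0.181% of the list), in 154Q number 7 of 1690 (0.414%) and in the contact mutant number 7 of 848 (0.825%). With repeat peaks left in, its rank was 15 in WT and 15 in the contact mutant. By fold enrichment over the CIC KO control, which the 154Q list does not give, it ranked 1 in both WT and the contact mutant.

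This peak held the same pair of summits in each list. The 5′ summit lay at 117122994 in WT, 117122992 in 154Q and 117122995 in the contact mutant, and the 3′ summit at 117123177, 117123157 and 117123167. The 5′ summit had a −log10 q of 92.1 in WT, 307 in 154Q and 51.6 in the contact mutant. The 3′ summit had 173, 300 and 56.1 in the same order. In WT the 3′ summit, beside the octamers at +1554 and +1578, was thus the higher of the pair, whereas in the other lists the pair lay close together. In fold enrichment the 3′ summit stood above the 5′ summit in WT (16.0 and 13.5) and below it in the contact mutant (8.92 and 10.6). The 154Q peak had a further weak summit at 117122477, with a −log10 q of 1.44.

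The second Spred1 site lay upstream of the start, over chr2:117119955-117121101, and no octamer was within 50 bp of its main summit. Its best −log10 q was 7.39 in WT (rank 1170, 26.4% of the list), 21.8 in 154Q (rank 113, 6.69%) and 4.70 in the contact mutant (rank 240, 28.3%). It was called as 2 peaks of 1 summit in WT and in the contact mutant, and as 1 peak of 5 summits in 154Q. Peaks with 5 or more summits made up 0.237% of the 154Q list (4 peaks). The octamer at -1190 was within 50 bp of a summit in 154Q alone, that at 117120141 with a −log10 q of 9.57. A RefSeq start of Spred1 (117121071) lies inside this site, within the contact-mutant peak at chr2:117120858-117121101.

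Spred2 (ENSMUSG00000045671, chr11:19924375-20024026, plus strand) shared its window with the far end of Actr2 but with no other start site. Its strongest site was again in intron 1, over chr11:19925035-19926377. It ranked 82 in WT (1.85%), 14 in 154Q (0.828%) and 51 in the contact mutant (6.01%). By fold enrichment it ranked 62 in WT and 22 in the contact mutant. The peak was 1199 bp wide with 6 summits in WT, where the median peak was 215 bp wide and 8 of 4432 peaks (0.181%) had 6 or more summits. It had 5 summits in 154Q, and was 545 bp wide with 2 summits in the contact mutant.

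The order of the summits by −log10 q within this element differed between lists. In WT the summit at 19925381, beside the octamer at +940, had a −log10 q of 37.6, and the summit at 19926033, beside the octamer at +1616, had 29.4. In 154Q the summit at 19926025 had 151 and that at 19925396 had 103, so the 3′ summit was the higher. In the contact mutant the summit at 19925371 had 14.5, a second summit at 19925685 had 2.17, and no summit was called near the octamer at +1616, since the peak ended at 19925808. The 4 WT summits with no octamer within 50 bp had a −log10 q of 8.44 to 13.0 and lay in sequence of 60.4% to 74.3% GC (101 bp around the summit). The pair beside octamers lay in sequence of 50.5% and 47.5% GC.

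**Figure D2:**
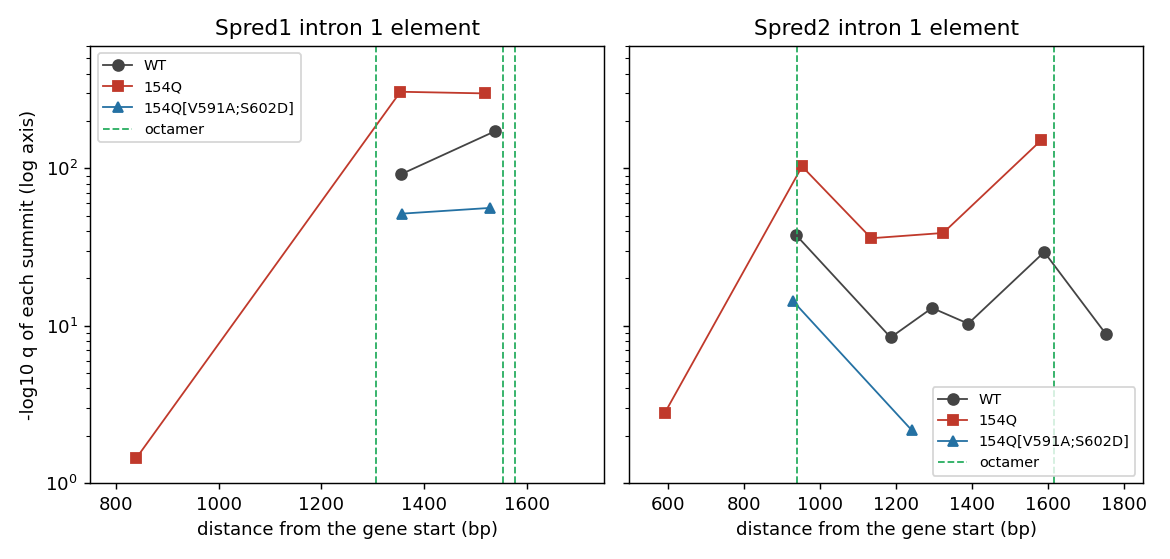
Summits of the intron 1 elements of Spred1 (left) and Spred2 (right) by distance in bp from the nearest annotated start (x axis) and −log10 q (log y axis), joined by list, with dashed lines at the octamers. Both high summits of Spred2 in WT and 154Q sit beside an octamer, and the contact-mutant line stops before the second one.

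The other Spred2 sites had lower ranks. The site upstream of the promoter (chr11:19919779-19920611) had a −log10 q of 2.68 in WT (rank 2837, 64.0%), 22.2 in 154Q (rank 112, 6.63%) and 8.06 in the contact mutant (rank 105, 12.4%). Its best summit in 154Q, and the one at 19920033 in WT, lay beside the octamer at -4360. The contact-mutant summits, at 19920296 and 19920463, lay on the GC-rich side of the site (72.3% GC), away from that octamer. The other lists also had a summit on that side. In WT it was the best of the peak (19920352, −log10 q 2.68, 69.3% GC), and in 154Q it was at 19920267 (11.6, 70.3% GC). The promoter site (chr11:19924076-19924353), with summits 122 to 151 bp upstream of the start, had 4.17, 8.26 and 2.21 in the same order, at 47.5%, 21.1% and 65.6% of its list.

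A site farther downstream in Spred2, 15173 bp from the start in WT (chr11:19939030-19939829) was called in WT with 5 summits and a −log10 q of 10.2 (rank 783, 17.7%), and in 154Q with 2 summits and 6.15 (rank 530, 31.4%). It was not called in the contact mutant. Of the WT list, 0.564% of peaks had 5 or more summits. One of its WT summits, at 19939356, also had the highest control background of the WT and contact-mutant Spred summits, 2.84 times the genome-wide level. The farthest site, 24632 bp upstream (chr11:19899607-19900018) was called in WT alone, with 5.39 (rank 1640, 37.0%).

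**Figure D3:**
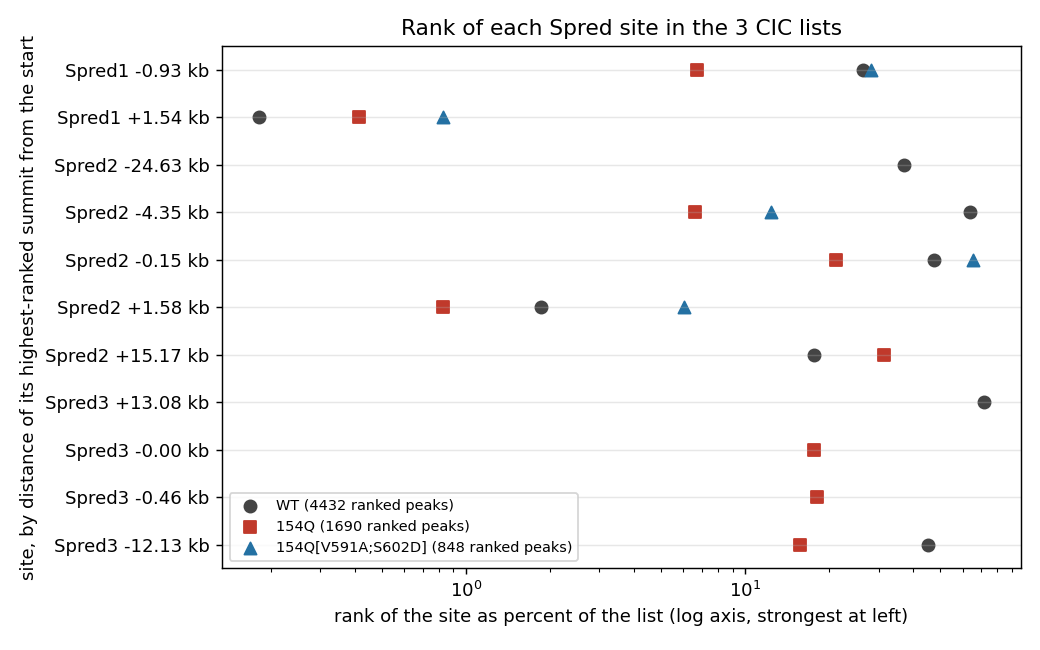
Rank of each of the 11 Spred sites as percent of its list (x axis, log scale, strongest at left), by list, with sites named by the distance in kb of their highest-ranked summit from the start. The intron 1 sites of Spred1 and Spred2 lie at the left in all 3 lists, and the 4 Spred3 sites have no contact-mutant point.

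Spred3 (ENSMUSG00000037239, chr7:29158829-29170411, minus strand) lies in a gene-dense stretch. Its window overlaps Catsperg1, Fam98c, Ggn, Psmd8, Rasgrp4 and Ryr1, and only in 154Q was a peak nearest the Spred3 start. That peak had its summit at 29168649, with a −log10 q of 9.48 (rank 298, 17.6%), 2 bp upstream of the start and 4.5 bp from the centre of the octamer at -6. A second 154Q peak had its better summit at 29169110, 463 bp upstream, with 9.46 (rank 304). Both lie within the gene record but upstream of its annotated basic transcript.

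The remaining Spred3 peaks were nearer to other genes. Peaks at the start of Psmd8, a proteasome subunit gene, had summits 56 bp (WT) and 77 bp (154Q) from its start and ranked 1999 in WT (45.1%) and 265 in 154Q (15.7%). A WT peak in an intron of Fam98c ranked 3179. With peaks restricted to those nearest a Spred3 start, a restriction chosen after the data had been seen, the counts were 0, 2 and 0. The numbers that the authors' peak caller gave run on without a gap through the Spred3 window in the contact mutant, so no peak there had been taken out before deposition. The same held for each other Spred gene and list except Spred1 in the contact mutant, where 1 number is missing from a stretch that begins 22913094 bp before the window, so its place is unknown. The smallest pileup in that list was 18 fragments and in the WT list 19, so occupancy below these levels was not detectable, and absence of a peak does not show absence of CIC.

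Pileup, the number of fragments over a summit, could be recovered for WT and the contact mutant from fold enrichment and −log10 p. It gives the counting precision of each summit and a ratio between the merged libraries once each is divided by its own genome-wide background (6.59 and 5.28 fragments). At the 3′ summit of the Spred1 element the pileup was 212 fragments in WT (95% Poisson interval 184 to 243) and 99 in the contact mutant (80.5 to 121). The scaled ratio was 0.583 (95% binomial interval 0.454 to 0.743), which lies below 1 by more than counting error. At the 5′ summit the pileups were 123 (102 to 147) and 80 (63.4 to 99.6), with a ratio of 0.811 (0.604 to 1.08). At Spred2 the summit by the octamer at +940 had 82 fragments in WT (65.2 to 102) and 46 in the contact mutant (33.7 to 61.4), and a ratio of 0.700 (0.477 to 1.02).

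These were 3 of 7 Spred summits called in both lists, and the other 4 had ratios of 0.743 to 1.59 with intervals that include 1. A ratio below 1 was usual in these libraries. Over the 556 pairs of summits, of 559, whose pileups could be solved in both lists the median was 0.793 (quartiles 0.634 and 1.00), 74.8% were below 1, and 17.4% were at or below the value of the Spred1 3′ summit. Of the 7 Spred summits 4 were below 1. The intervals cover counting error in merged libraries, not the spread between animals, and the authors' spike-in did not enter them.

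**Figure D4:**
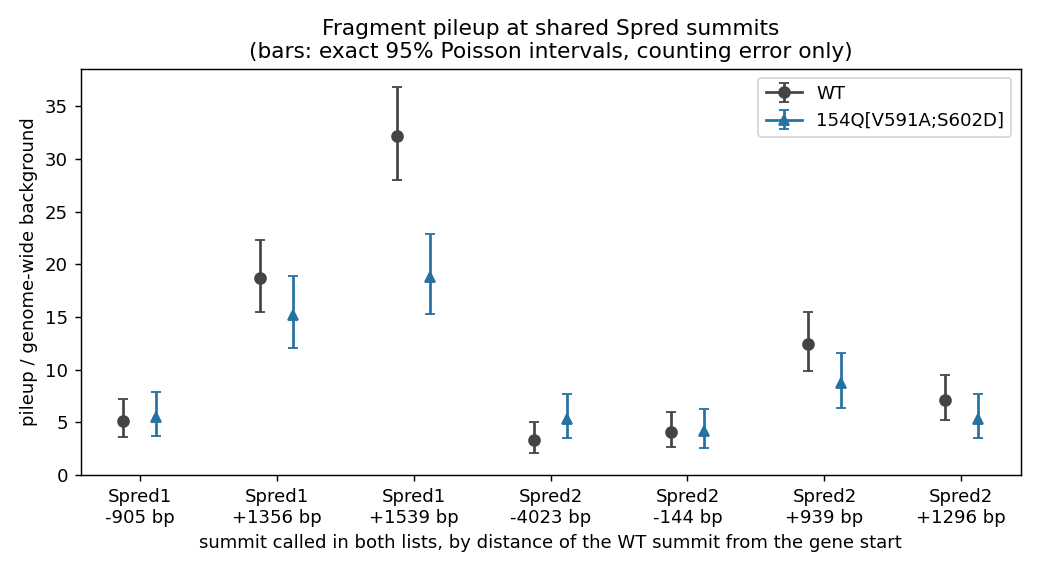
Pileup divided by the genome-wide background of the list (y axis, linear from 0) at the 7 Spred summits called in both WT and the contact mutant, with exact 95% Poisson intervals. The intervals of the Spred1 summit at +1539 do not overlap, and those of each other pair do.

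Control signal at the Spred summits was not unusual. The local control background was 1.00 to 2.84 times the genome-wide level at the 23 WT summits (median 1.28), beside a median of 1.33 and a 90th percentile of 3.46 over the list. In the contact mutant the median was 1.31 over 9 summits, with a maximum of 1.93, beside 1.49 and 4.20. At the Spred1 3′ summit it was 1.87 in WT and 1.93 in the contact mutant.

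An octamer lay within 50 bp of the best summit of 2 of 10 Spred peaks in WT, 3 of 9 in 154Q and 2 of 6 in the contact mutant. Over each list the share was 2.39% (95% Wilson interval 1.98 to 2.88), 6.57% (5.48 to 7.85) and 3.54% (2.49 to 5.01), and among the 100 highest-ranked peaks it was 14, 33 and 12 peaks. In WT and the contact mutant, the Spred peaks that carry one were the intron 1 peaks of Spred1 and Spred2, the latter by the octamer at +940. In 154Q they were the Spred2 intron 1 peak (octamer at +1616), the upstream Spred2 peak (octamer -4360) and the Spred3 start peak. The Spred2 intron 1 site thus entered every count, so these counts are not independent of each other. Most octamers in the windows, 82 of 90, had no summit beside them. Among those were 6 overlapping copies of TGAATGAA in tandem at chr2:117188059-117188086, 3′ of Spred1, where no list had a peak.

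Other genes of the RAS pathway were read with a stricter window, the gene and 5 kb upstream, in which 16.2% of coding genes had a peak in WT, 6.96% in 154Q, 3.72% in the contact mutant and 2.37% in all 3 lists. Spred1 and Spred2 had peaks there in all 3 lists and Spred3 in 154Q. Of 27 genes for RAS proteins, their exchange factors and GTPase-activating proteins, RAF kinases, SHOC2 complex members, LZTR1 and Sprouty proteins, 9 had a peak in WT, 6 in 154Q and 1 in the contact mutant, and 17 had none in any list. Spry4, a Sprouty inhibitor of receptor tyrosine kinase signalling, was the gene with peaks in all 3, at ranks 4, 2 and 2. Those with peaks in both WT and 154Q were Rasa3, a RAS GTPase-activating protein (ranks 1433 and 1216), Dab2ip, another of that class (3531 and 1397), the RAS-related GTPase gene Rras (1124 and 539), and Shoc2, a scaffold for RAF activation (1738 and 970). Nf1, which encodes the partner of the SPRED proteins, was peak-bearing in 154Q alone, where it ranked 87 with a −log10 q of 26.9. It falls outside the rule for named genes and was picked after its value had been seen.

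The genes whose best ranks were most like those of each Spred gene were found by the distance between log10 ranks over the 3 lists, with peaks in the gene or 5 kb upstream. For Spred1 these were Clstn2, a synaptic adhesion gene (ranks 5, 6 and 9, distance 0.241), Dusp4, a MAP kinase phosphatase gene (11, 8 and 13, distance 0.308), and Gm47283 (9, 16 and 5, distance 0.391). For Spred2 they were Mafg, a small MAF transcription factor gene (40, 15 and 26), Pip4k2b, a lipid kinase gene (65, 24 and 20), and Cic itself (106, 38 and 81), with distances of 0.429 to 0.491. For Spred3, which in that stricter window had a rank in 154Q alone (298), they were Tusc3 (285), Atxn2l (279) and Bend3 (327). With 3 lists, likeness is a description of rank order and nothing more.

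No Spred peak lay near the 50 kb limit. The farthest Spred peak inside the window was 24632 bp away, at Spred2 in WT, with a −log10 q of 5.39. The nearest peaks outside lay 67823 bp (154Q, −log10 q 33.2) and 67851 bp (WT, 45.4) from Spred3, and 1146710 bp from Spred1 (154Q).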

How the data were processed

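The authors split cerebellar nuclei of each of 15 mice over 3 antibodies for CUT&RUN (45 samples). The H3K27ac and IgG libraries were not analysed here. Per the labels and the methods, reads were trimmed (Trimmomatic 0.36), aligned to mm10 (Bowtie2 2.3.4.1), and handled with SAMtools 1.10 and bedtools 2.29.1, short fragments were kept, replicate libraries were merged, and peaks were called with MACS3 against merged CIC KO. As deposited, the lists of WT and 154Q[V591A;S602D] (the contact mutant) give intervals, a display score, fold enrichment (a ratio), −log10 p-value, −log10 q-value and summit offsets (other: whole bp). The deposited 154Q list gives 1-bp summits with −log10 q-value, and the authors had removed repeat peaks from it. The lowest −log10 q in the lists is 1.30.

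Peaks on the autosomes, X and Y were analysed with the GRCm38.p6 sequence and GENCODE M21 basic annotation, and with RefSeq promoters (GRCm38.p6). Summits were assigned to a gene within 50 kb, and distances are to the nearest annotated start. Peaks matched when they overlapped by 1 bp or had summits within 100 bp. Peaks of 154Q ran from their first to their last summit. Octamers had to lie wholly within 50 bp of a summit. Pileups are the whole number whose Poisson tail fits the deposited fold enrichment and −log10 p, solved for 99.9% of WT and 99.7% of contact-mutant summits. The steps were tested on simulated data. Python 3.11.15, numpy 2.4.6 and scipy 1.17.1 were used. Named genes were the Spred genes, genes with the nearest start to a window peak, RAS-list genes with a peak in at least 2 lists, and the 3 genes of most similar rank for each Spred gene. Other genes in the windows, and the protein classes of the RAS list, are named as annotation with no values, and Nf1 is an exception to the rule. Of 28 RAS-list genes, 27 were matched in the annotation. The members, lists and tests were chosen with earlier results of these data known. Alternatives were other repeat, q, window, rank, match and octamer settings.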

Additional observations from a re-analysis of the deposited data

How the results depend on the processing

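Of 161 recomputed values, 137 kept the reported value within 1.5 times for a count, or within its 95% Wilson interval for a rank or share, and 24 did not. For a rank this interval served only as a tolerance, since a rank in a single merged list has no such sampling error. It counted 34 of 41 rank values as kept. No direction was tested, so none could turn. The numbers of peaks at Spred1 and Spred2 stayed within 1.5 times under every repeat filter, q threshold and window tried, a limit that a fall from 3 to 2 meets. Spred1 fell from 3 to 2 in WT and the contact mutant at q below 0.01 and 0.001. It also did so in the contact mutant with peaks over 20% repeat-masked removed. Spred2 fell from 3 to 2 in the contact mutant at q below 0.001. In WT it fell from 5 to 4 there, within 10 kb, and in the gene and 5 kb upstream. The Spred3 count in WT, 2 peaks, was 1 at q below 0.001, 1 within 10 kb, 0 in the gene and 5 kb upstream, and 0 for peaks nearest the Spred3 start (an alternative added after seeing the data). Without the repeat filter, Spred1 ranked 15 in WT and 15 in the contact mutant, against 8 and 7, a change that this tolerance counts as kept. Ranked by fold enrichment, Spred1 was 1 in WT and 1 in the contact mutant, Spred2 was 62 and 22, and Spred3 was 2298 in WT. Ranked among summits, Spred3 was 2459 in WT. In the gene and 5 kb upstream, Spred3 ranked 298 in 154Q. At q below 0.001, 3 of 7 WT Spred peaks were found in the contact mutant (11.7% of all WT peaks were) and 3 of 4 of the latter in WT (78.5% of all), against 5 of 10 (13.4%) and 5 of 6 (70.9%). With an octamer near any summit of the peak, 5 peaks counted in 154Q, and with 25 bp 1 counted in the contact mutant. The share of coding genes with a peak, in the order WT, 154Q and the contact mutant, was 16.2%, 6.96% and 3.72% in the gene and 5 kb upstream, 20.9%, 9.42% and 5.35% within 10 kb, and 27.1%, 12.2% and 6.01% at q below 0.001, as the narrower rules admit fewer peaks by construction.

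No paired analysis was possible because replicate libraries were merged before peak calling, and for the same reason no library could be left out. A deeply sequenced animal can therefore weigh more than others in a list. The 154Q list gives neither pileup nor fold enrichment, so ratios to it could not be made. Depth limits detection to about 19 fragments at a summit in WT and 18 in the contact mutant.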
